A study of Mus musculus with 6 samples.

Results

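The genes examined here form the cyclic AMP (cAMP) signalling machinery of the mouse ovary. They comprise the G protein subunit Gnas and the adenylyl cyclases, the subunits and inhibitors of protein kinase A (PKA), the EPAC exchange factors, the A-kinase anchoring proteins (AKAPs), the cyclic nucleotide phosphodiesterases, and the CREB family with its CRTC coactivators. Members were taken by gene symbol under a rule that uses no measured value but was chosen with earlier results of these data known. Of the 18280 genes in the deposited table, 62 matched. Dennd1a transgenic (TG) ovaries from 3 mice were compared with wild-type (WT) ovaries from 3 mice. Both genotypes were collected 44 h after an injection of pregnant mare serum gonadotropin (PMSG), a hormone preparation with FSH-like activity that drives follicle growth in mice. DENND1A is a clathrin-associated exchange factor for a RAB GTPase. The sample labels give the genotype as Dennd1aTG and do not describe the construct, the promoter that drives it, the strain or the age of the animals. Total RNA of whole ovary was sequenced on a BGISEQ-500, so each value sums over all cell types of the organ.

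In the cAMP pathway, a hormone such as FSH or LH binds a receptor coupled to the stimulatory G protein, whose alpha subunit activates membrane adenylyl cyclases that make cAMP from ATP. cAMP binds the regulatory subunits of PKA and frees the catalytic subunits, which phosphorylate CREB and many enzymes, while AKAPs hold the kinase at particular sites and phosphodiesterases destroy the messenger. In the ovary this route carries gonadotropin signals in granulosa and theca cells, and cAMP kept high inside the oocyte holds meiosis in arrest.

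The libraries held between 17075484 and 18516171 estimated counts, and their composition factors lay between 0.990 and 1.015. Dennd1a itself checked the labels, at 570, 582 and 588 CPM (counts scaled to library size) in TG ovaries against 44.6, 39.5 and 49.3 CPM in WT ovaries, a log2 fold change of 3.70 (edgeR adjusted p = 4.03e-07). Granulosa markers were present in every library, with summed levels of 9 genes between 5621 and 6393 CPM in TG ovaries and between 5190 and 6582 CPM in WT ovaries. Markers of skeletal muscle stayed at or under 0.747 CPM in sum. Some libraries stood apart in markers of other tissues: the summed level of 4 adipocyte genes was 170 CPM in TG replicate 2 and 24.5 and 26.7 CPM in the other TG libraries, against 15.4 to 33.6 CPM in WT ovaries. The summed level of 3 oviduct genes was 1.57 to 6.33 CPM in TG ovaries, against 41.9 CPM in WT replicate 3 and 0.766 and 1.83 CPM in the other WT libraries. In WT replicate 3 nearly all of this was Ovgp1, at 40.9 CPM, with Pax8 at 0.705 CPM and Foxj1 at 0.294 CPM. Foxj1 was higher in TG replicate 2, at 0.459 CPM. The 7 macrophage markers summed to 201 to 216 CPM in TG ovaries and 244 to 397 CPM in WT ovaries, without overlap. The 4 erythrocyte genes summed to 191 to 213 CPM in TG ovaries and 117 to 132 CPM in WT ovaries, and 3 of them were called higher in TG ovaries. The 6 lymphocyte genes summed to 4.02 to 5.13 CPM in TG ovaries and 5.28 to 6.68 CPM in WT ovaries. The part of these differences in any value below was not tested. Since whole organs were sequenced, fewer cells of a type and less RNA per cell cannot be told apart.

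Across the cAMP machinery, the transcripts of TG and WT ovaries differed little. Of the 62 members, 54 passed the filter on low counts, and 0 of these passed the edgeR quasi-likelihood test at a Benjamini-Hochberg adjusted p under 0.05, where 149 of all 14124 tested genes did, a background of 1.05%. By direction, 144 genes (1.02%) were called lower and 5 genes (0.0354%) higher in TG ovaries. DESeq2, limma-voom and limma on FPKM values also called 0 members, and so did edgeR without TG replicate 2 and WT replicate 3, the libraries that stood apart. At an unadjusted p under 0.05 there was 1 member, Pde3b, which is 1.85% of those tested, against 576 genes or 4.08% of all. The smallest adjusted p among the members was 0.9997. The p-values set the difference between genotypes against the variation between these 3 animals of each genotype. That variation is estimated for each gene with information drawn from all tested genes.

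The intervals show how much change the data leave room for. For 47 of the 54 tested members, 87.0%, the 95% interval of the fold change lay wholly within 1.5-fold in both directions, against 74.5% of all tested genes. The other members were Akap5, Akap6, Pkib, Pde11a and Pde9a, which were all of low level, and Pde3b and Pde4b. Among genes with a mean above 10 CPM the shares were closer, at 44 of 46 members and 9596 of 10289 tested genes. The median log2 fold change of the members was 0.02, with a range from -0.33 to 0.35, against a median of 0.00 over all tested genes. Fold changes were above 0 for 29 members and below 0 for 25. Groups did not overlap for 2 members, Prkar1a and Pde11a, which is 3.70% against 8.25% of all genes.

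**Figure D1:**
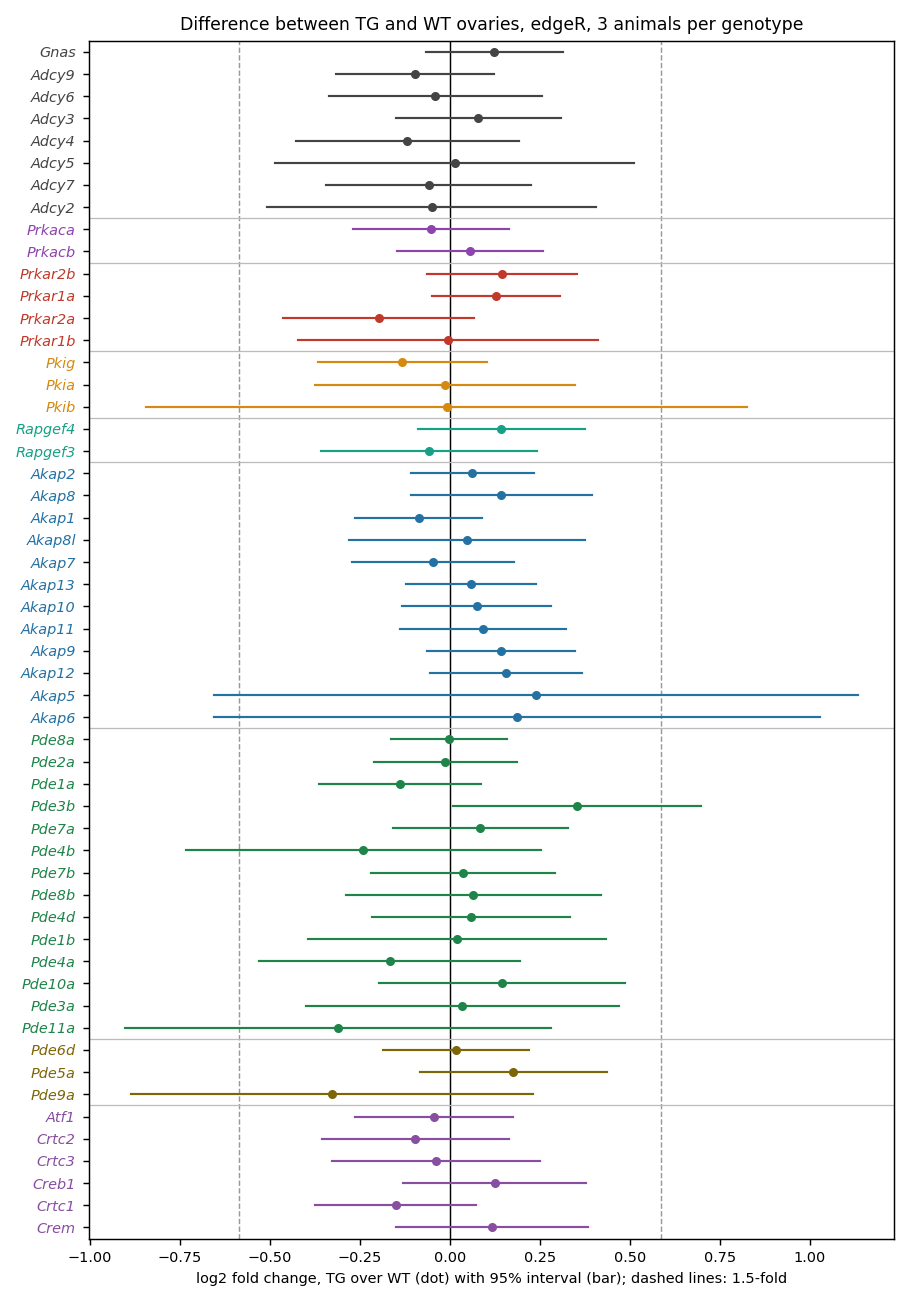
Log2 fold change of TG over WT ovaries (dot) with its 95% interval (bar) for each of the 54 tested cAMP signalling genes, grouped by role; dashed lines mark 1.5-fold. The interval of Pde3b alone excludes 0, and all dots lie between -0.33 and 0.35.

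Levels differed far more between genes than between genotypes. Per transcript length, expressed as FPKM (a fragment count scaled by library depth and transcript length), 21 tested members averaged above 10 FPKM over the 6 libraries, 29 averaged between 1 and 10 FPKM, and 4 averaged under 1 FPKM. The median of all tested genes lay between 9.99 and 10.46 FPKM in the libraries. The leading member was Gnas at 909 FPKM, followed by the PKA regulatory subunits Prkar2b at 375 FPKM and Prkar1a at 169 FPKM, and then the catalytic subunit Prkaca at 91.6 FPKM.

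**Figure D2:**
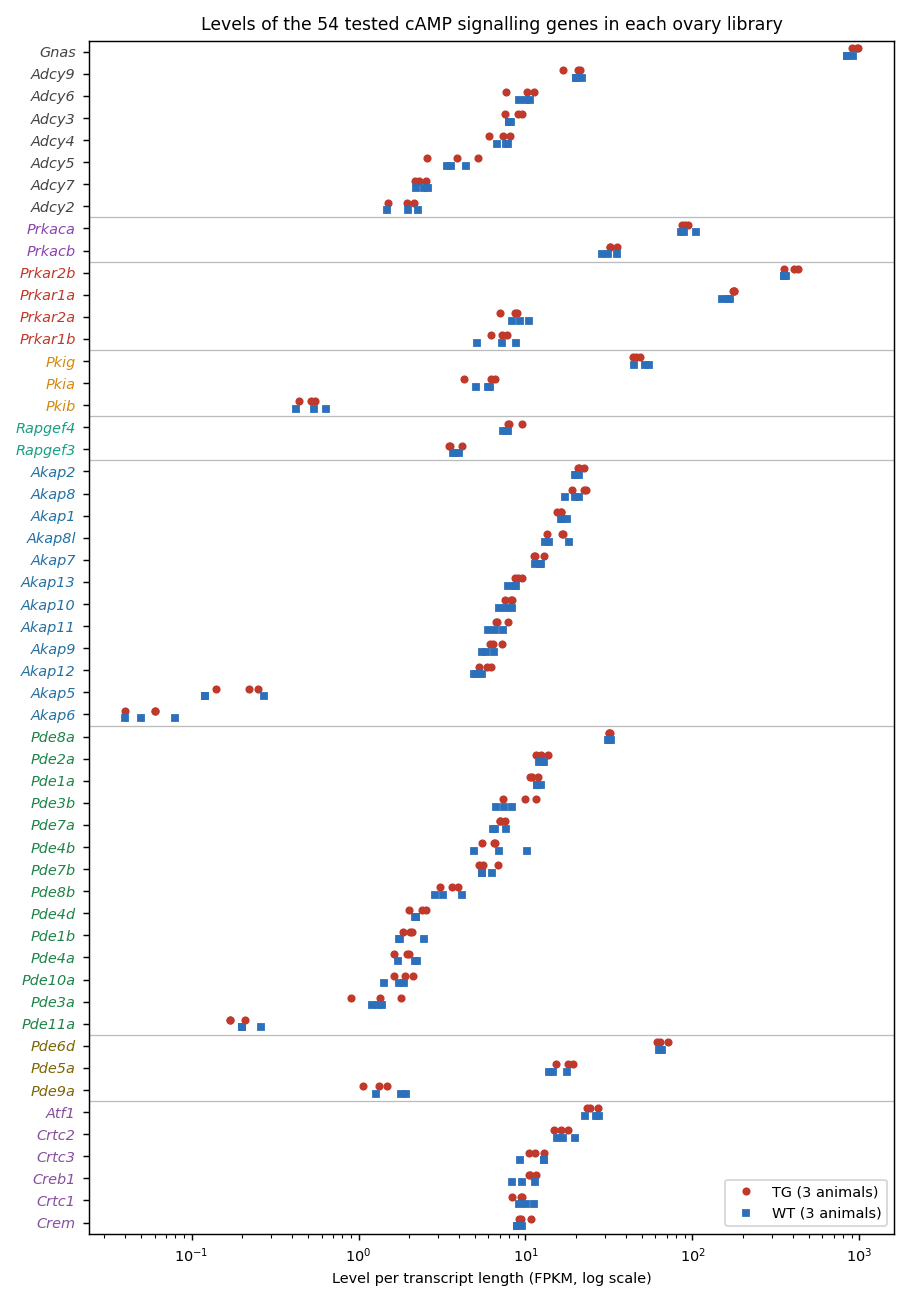
Level per transcript length (FPKM, log scale) of each tested member in each library, with TG animals as red circles above WT animals as blue squares, grouped by role. Gnas, at a mean of 909 FPKM, and Prkar2b, at 375 FPKM, lead, and the symbols of both genotypes lie close together for nearly every gene.

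Gnas encodes the stimulatory alpha subunit that links receptors to the cyclases. Its level was 1357, 1476 and 1474 CPM in TG ovaries and 1259, 1304 and 1393 CPM in WT ovaries. WT replicate 3 exceeded TG replicate 1, so the groups overlapped, although the other TG animals were above every WT animal. The log2 fold change was 0.12 with an SE of 0.08, and its 95% interval ran from -0.07 to 0.31. The locus lies on mouse chromosome 2 (chr2:174284320-174346744, plus strand, mm10) and makes 16 annotated protein-coding transcripts, which a count per gene does not separate.

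Of the adenylyl cyclases, Adcy9, a widely expressed membrane cyclase that is insensitive to forskolin in most assays, had the highest level per length at 20.05 FPKM. It measured 151, 121 and 148 CPM in TG ovaries and 157, 147 and 145 CPM in WT ovaries. TG replicate 2 was the lowest of the 6 animals and the groups overlapped, with a log2 fold change of -0.10 (SE 0.10). Adcy6, a cyclase inhibited by calcium, followed at 9.84 FPKM, then Adcy3, a calcium-regulated cyclase best known from olfactory neurons, at 8.36 FPKM, Adcy4 at 7.27 FPKM, and Adcy5, Adcy7 and Adcy2 at 3.84, 2.38 and 1.89 FPKM. Fold changes of these 7 cyclases lay between -0.12 and 0.08 on the log2 scale.

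The summed cyclase level was 59.2, 44.5 and 55.9 FPKM in TG ovaries and 54.9, 53.3 and 54.4 FPKM in WT ovaries. The means were 53.2 ± 7.74 FPKM in TG ovaries and 54.2 ± 0.79 FPKM in WT ovaries (SD, n = 3 each), with TG animals on both sides of all WT animals. Adcy9 made up 36.7% of the sum in TG ovaries and 38.0% in WT ovaries. Adcy5, the other calcium-inhibited cyclase, was among the most variable members, at 25.0, 12.7 and 18.8 CPM in TG ovaries and 16.6, 17.7 and 21.8 CPM in WT ovaries. Adcy3 and Adcy7 overlap another annotated gene, and the counting does not state whether strand was used, so reads could be shared with Cenpo and Brd7. Counts of Adcy3 were not whole numbers in any library, while those of Adcy7 were whole in all 6.

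The catalytic subunits carry the kinase activity of PKA, and no difference between genotypes was detectable for either. Prkaca measured 181, 202 and 189.7 CPM in TG ovaries and 188, 224 and 183 CPM in WT ovaries, a log2 fold change of -0.05 (SE 0.10). Prkacb measured 143, 133 and 133 CPM in TG ovaries and 144, 130.1 and 119 CPM in WT ovaries, a log2 fold change of 0.06 (SE 0.09). The groups overlapped for both genes, and a WT animal had the highest value of each. Per length, the catalytic sum was 123 ± 2.45 FPKM in TG ovaries and 125 ± 10.7 FPKM in WT ovaries (SD, n = 3 each).

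The regulatory subunits bind cAMP and hold the catalytic subunits inactive without it. Prkar2b, the RII beta subunit and known from rat granulosa cells as an FSH-induced gene, measured 1317, 1271 and 1094 CPM in TG ovaries and 1128, 1101 and 1099.9 CPM in WT ovaries. TG replicates 1 and 2 were above all WT animals, and TG replicate 3 was the lowest of all. Its log2 fold change was 0.15 with an SE of 0.09, and the 95% limits were -0.06 and 0.35. TG animals averaged 1227 ± 118 CPM, while WT animals were more tightly grouped at 1110 ± 15.9 CPM (SD, n = 3 each).

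Prkar1a, the RI alpha subunit, measured 555, 582 and 576 CPM in TG ovaries and 543, 532 and 492 CPM in WT ovaries. Every TG animal was above every WT animal, by 11.3 CPM at the nearest, and the log2 fold change was 0.13 (SE 0.08, unadjusted p = 0.137, edgeR adjusted p = 0.9997). Prkar2a, the RII alpha subunit, measured 33.8, 27.6 and 33.4 CPM in TG ovaries and 35.7, 40.7 and 32.4 CPM in WT ovaries, a log2 fold change of -0.20 (SE 0.12). TG replicate 2 was the lowest of the animals and the groups overlapped. Prkar1b, the RI beta subunit of nervous tissue, was at 7.04 FPKM and had a log2 fold change of -0.01 (SE 0.18). It overlaps Dnaaf5, so reads could be shared, although its counts were whole in all 6 libraries.

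Prkar2b made up 67.2% ± 2.42 of the summed regulatory level in TG ovaries and 66.7% ± 0.80 in WT ovaries, and Prkar1a made up 30.2% in each (n = 3 each, shares of summed FPKM). For both, the genotypes differed by less than the spread between animals. Prkar2a, a minor part, made up 1.43%, 1.19% and 1.58% in TG ovaries and 1.69%, 1.97% and 1.6% in WT ovaries. These shares did not overlap, but the nearest, 1.58% and 1.6%, almost met, and the CPM values of Prkar2a overlapped. Among other shares, that of Adcy3 in the cyclase sum was higher in every TG animal than in any WT animal. That of Akap1 in the AKAP sum was lower in every TG animal. The CPM values of Adcy3 and Akap1 overlapped. These shares were picked after those of all families were seen, and most shares overlapped. Groups did not overlap in CPM for 8.25% of all tested genes. Differences in shares were not tested. Regulatory message exceeded catalytic message in every library, with a ratio of summed FPKM of 5.08, 4.71 and 4.49 in TG ovaries and 4.42, 3.91 and 4.55 in WT ovaries. WT replicate 3 was above TG replicate 3, so the ratios overlapped. The regulatory sum itself was 587 ± 36.6 FPKM in TG ovaries and 532 ± 13.9 FPKM in WT ovaries (SD, n = 3 each).

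**Figure D3:**
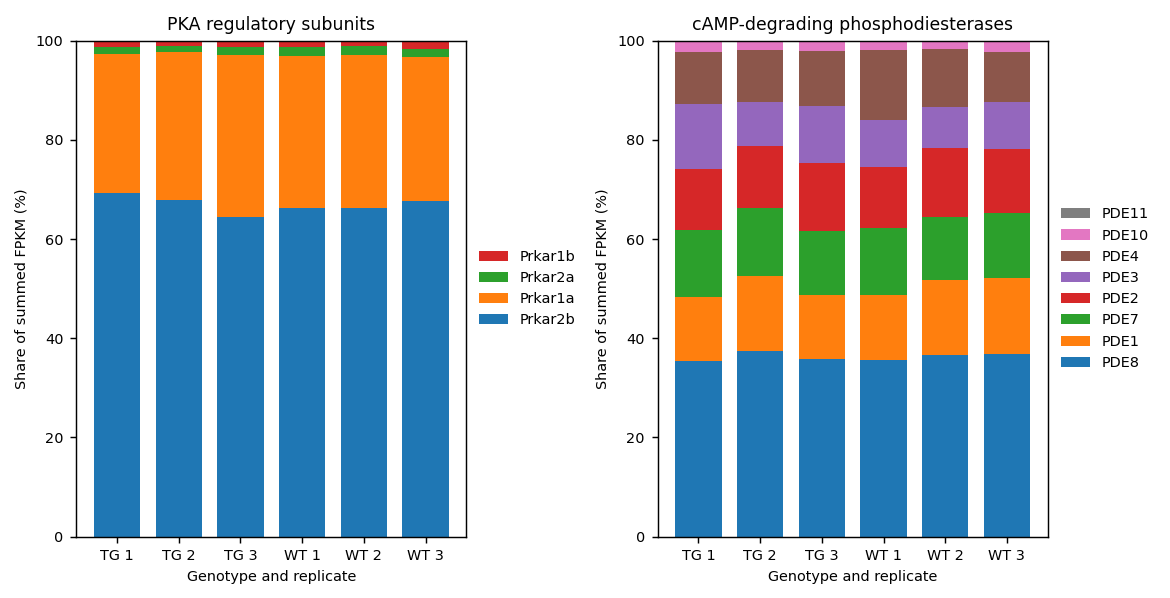
Left, share of each PKA regulatory subunit in their summed FPKM (%); right, share of each phosphodiesterase family in the summed FPKM of cAMP-degrading enzymes (%), 1 bar per animal with TG left of WT. Prkar2b holds 67.2% of the regulatory sum in TG and 66.7% in WT ovaries, and PDE8 holds 36.2% of the phosphodiesterase sum in TG and 36.3% in WT ovaries.

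The start regions of 3 members are shown because CREB, the nuclear target of PKA, binds the cAMP response element (CRE), searched for here as TGACGTCA and as its shorter core TGACG on both strands. Prkar2b and Prkar1a are shown as the regulatory subunits with nearly all of the message, and Pde8a as the leading phosphodiesterase. Each is 1 RefSeq window of GRCm38.p6 running from 250 bases before to 50 after an annotated start, written 5′ to 3′ on the gene's strand, with CRE letters in capitals. Prkar2b is chr12:32061228-32061527 on the minus strand, Prkar1a is chr11:109650699-109650998 on the plus strand, and Pde8a is chr7:81213015-81213314 on the plus strand.
Prkar2b: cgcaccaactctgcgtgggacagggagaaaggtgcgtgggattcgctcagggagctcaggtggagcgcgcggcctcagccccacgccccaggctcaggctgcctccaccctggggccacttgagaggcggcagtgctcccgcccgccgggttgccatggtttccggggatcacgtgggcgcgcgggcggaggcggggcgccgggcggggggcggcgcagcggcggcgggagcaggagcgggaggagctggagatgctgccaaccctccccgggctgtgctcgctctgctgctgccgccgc
Prkar1a: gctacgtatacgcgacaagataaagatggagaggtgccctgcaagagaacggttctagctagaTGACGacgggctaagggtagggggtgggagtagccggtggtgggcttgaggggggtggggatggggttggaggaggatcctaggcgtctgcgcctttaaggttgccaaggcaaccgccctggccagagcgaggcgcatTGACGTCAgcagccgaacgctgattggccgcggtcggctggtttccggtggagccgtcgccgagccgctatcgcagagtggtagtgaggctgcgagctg
Pde8a: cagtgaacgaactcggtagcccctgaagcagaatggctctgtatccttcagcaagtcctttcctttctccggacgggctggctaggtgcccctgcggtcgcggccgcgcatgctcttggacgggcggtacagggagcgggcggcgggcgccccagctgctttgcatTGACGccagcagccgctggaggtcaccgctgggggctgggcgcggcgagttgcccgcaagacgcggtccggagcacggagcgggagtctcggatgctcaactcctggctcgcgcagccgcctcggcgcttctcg

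The Prkar1a window holds the full TGACGTCA, with its first base at position -49 from the start, and 1 further TGACG. The Pde8a window holds 1 TGACG, and these letters do not occur in the Prkar2b window, of which 75.0% is G or C. Of 62 members, 50 had windows in the RefSeq table, 97 in all. The full CRE was in 2 of these 97 windows (2.06%), against 1.79% of the 32851 windows of all genes and 2.77% of those of tested genes. Both windows belong to Prkar1a and hold the same site, at position -49 from the start shown and at position 39 from another start, so that per gene the full CRE was in 1 of 50 members (2.0%) against 3.34% of tested genes. The core TGACG, which the full element contains, was in 23.7% of member windows and 28.8% of windows of tested genes. Per gene it was in 19 of 50 members (38.0%) and 33.5% of tested genes. The 50 members include some that were not tested. They had 97 windows, against 14317 windows for 11183 tested genes, and more windows per gene raise a share per gene. Tested members with TGACG in a window (n = 19) had a median log2 fold change of -0.04 and a range from -0.24 to 0.13. Those without it (n = 25) had a median of 0.06 and a range from -0.31 to 0.24. The ranges overlapped, and the same split of all tested genes was not made. These matches describe letters in a window and say nothing of binding.

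The PKA inhibitor peptides bind free catalytic subunits and carry them out of the nucleus. Pkig, the gamma form, was at 48.4 FPKM and measured 38.6, 41.7 and 43.3 CPM in TG ovaries and 39.4, 46.5 and 49.7 CPM in WT ovaries. WT replicates 2 and 3 were the highest, the groups overlapped, and the log2 fold change was -0.13 (SE 0.10). Pkia, the alpha form, measured 22.8, 15.3 and 21.9 CPM in TG ovaries and 20.8, 21.8 and 17.9 CPM in WT ovaries, a log2 fold change of -0.01 (SE 0.16). Pkib stayed near the limit of measurement at 0.518 FPKM.

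The EPAC proteins are exchange factors for RAP GTPases that cAMP activates without PKA. Rapgef4 (EPAC2) measured 28.8, 28.9 and 34.8 CPM in TG ovaries and 28.3, 28.8 and 26.6 CPM in WT ovaries. TG replicate 3 was the highest, the remaining TG animals lay at or just above the top WT animals, and the log2 fold change was 0.14 (SE 0.10). Rapgef3 (EPAC1) measured 12.2, 11.4 and 14.3 CPM in TG ovaries and 12.4, 14.0 and 13.0 CPM in WT ovaries, a log2 fold change of -0.06 (SE 0.13). Rapgef4 was also the higher of the pair per length, at 8.03 FPKM against 3.77 FPKM for Rapgef3.

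AKAPs are scaffolds that bind the regulatory subunits and place PKA beside its targets. Of 13 in the table, 12 were tested, and none passed the test. A log2 fold change above 0 was found for 10 (83.3%, against 50.7% of all tested genes), and the median was 0.08 against 0.00 for all genes. Akap2 measured 132, 137 and 145 CPM in TG ovaries and 131, 136 and 129 CPM in WT ovaries, a log2 fold change of 0.06 (SE 0.08). The groups overlapped, with TG replicates 2 and 3 highest. Akap8, a nuclear anchoring protein, measured 66.3, 82.5 and 80.1 CPM in TG ovaries and 69.6, 61.8 and 76.0 CPM in WT ovaries, a log2 fold change of 0.14 (SE 0.11). TG replicates 2 and 3 were above all WT animals and TG replicate 1 was below WT replicate 1.

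The other AKAPs spanned a wide range of levels. Akap1, which tethers PKA to the outer mitochondrial membrane, averaged 16.5 FPKM, Akap13 8.76 FPKM, Akap9, a centrosome and Golgi scaffold, 6.25 FPKM, and Akap12 (gravin) 5.48 FPKM. Akap12 measured 35.2, 32.5 and 37.7 CPM in TG ovaries and 29.6, 31.6 and 33.4 CPM in WT ovaries, a log2 fold change of 0.16 (SE 0.09). TG replicates 1 and 3 were above all WT animals and TG replicate 2 was not. Akap5 and Akap6, the neuronal and cardiac scaffolds, were at 0.187 and 0.055 FPKM. The AKAP sum was 123 ± 1.51 FPKM in TG ovaries and 118 ± 3.64 FPKM in WT ovaries (SD, n = 3 each). Every TG sum was above every WT sum, the nearest being 121.4 FPKM in TG replicate 1 and 120.11 FPKM in WT replicate 3. The sums of the other families overlapped, and differences in sums were not tested. The Akap2 counts, like those of Adcy3, were not whole numbers in any library, as RSEM gives where it divides reads between genes.

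Phosphodiesterases set how long cAMP lasts. Of 16 enzymes that degrade cAMP, alone or beside cGMP, 14 were tested, 8 had a log2 fold change above 0, and the median was 0.03. Pde8a, a cAMP-specific enzyme with very high affinity for its substrate, led at 31.7 FPKM. It measured 79.5, 80.2 and 79.2 CPM in TG ovaries and 81.2, 79.9 and 78.4 CPM in WT ovaries. All 6 animals lay within a few CPM of each other, the log2 fold change was -0.00 with an SE of 0.07 and 95% limits of -0.16 and 0.16, and the within-group coefficient of variation of 1.33% was the smallest of all members. Pde2a, which cGMP stimulates, measured 47.9, 45.3 and 52.9 CPM in TG ovaries and 49.4, 50.9 and 47.2 CPM in WT ovaries, a log2 fold change of -0.01 (SE 0.09).

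Pde3b was the member with the smallest p. It encodes the cGMP-inhibited enzyme that, in adipocytes and liver, is activated by insulin. It measured 58.4, 37.9 and 50.6 CPM in TG ovaries and 42.4, 34.3 and 38.3 CPM in WT ovaries. TG replicates 1 and 3 were above all WT animals, and TG replicate 2 lay inside the WT range. The log2 fold change was 0.35 with an SE of 0.15 and 95% limits of 0.01 and 0.70, with an unadjusted p of 0.0451 and an edgeR adjusted p of 0.9997 over all genes. Without TG replicate 1 the log2 fold change was 0.21 (adjusted p = 0.9998), and without TG replicate 2 it was 0.51 (adjusted p = 0.191), and over all 17 alternatives the adjusted p ran from 0.191 to 0.99997. The 4 adipocyte markers summed to 24.5, 170 and 26.7 CPM in TG ovaries and 18.8, 15.4 and 33.6 CPM in WT ovaries, and their part in the Pde3b values was not tested. The gene spans chr7:114415222-114537938 on the plus strand. Pde3b made up 9.76% ± 1.73 of the summed cAMP phosphodiesterase level in TG ovaries and 7.69% ± 0.54 in WT ovaries (SD, n = 3 each).

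**Figure D4:**
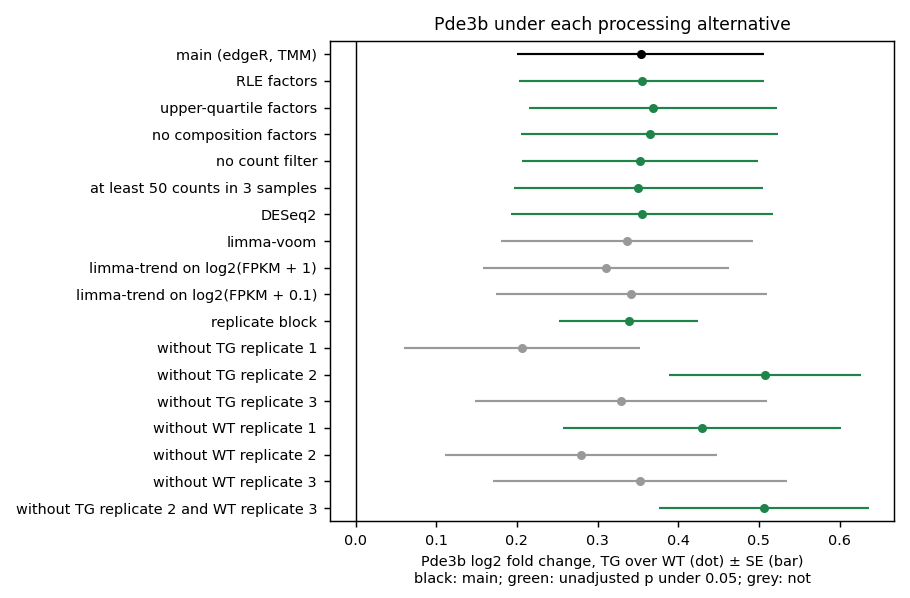
Log2 fold change of Pde3b, TG over WT (dot), with its SE (bar), in the edgeR analysis (black) and under each of 17 alternatives (green where the unadjusted p was under 0.05, grey where not). All values are above 0, from 0.21 without TG replicate 1 to 0.51 without TG replicate 2.

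Pde3a, the main cAMP-degrading enzyme of the oocyte, which cGMP inhibits during meiotic arrest, was much lower per length at 1.33 FPKM. It measured 16.9, 9.59 and 13.2 CPM in TG ovaries and 13.9, 12.5 and 12.3 CPM in WT ovaries. The TG animals held both the highest and the lowest values. Of the rolipram-sensitive PDE4 enzymes, Pde4b was the highest at 6.76 FPKM and had the widest spread of the better-measured members, with a within-group coefficient of variation of 25.6%. It measured 22.9, 19.6 and 22.6 CPM in TG ovaries and 35.1, 24.5 and 17.2 CPM in WT ovaries, with a log2 fold change of -0.24, an SE of 0.22 and 95% limits of -0.73 and 0.25. The WT animals lay on both sides of all TG animals. Without WT replicate 3 the log2 fold change was -0.46 (unadjusted p = 0.0232, edgeR adjusted p = 0.754). Pde4d, the isoform induced by gonadotropins in rodent granulosa cells, was at 2.25 FPKM and Pde4a at 1.95 FPKM.

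By family, the cAMP phosphodiesterase sum was 97.6 ± 4.88 FPKM in TG ovaries and 96.6 ± 5.54 FPKM in WT ovaries (SD, n = 3 each). PDE8 took 36.2% of it in TG ovaries and 36.3% in WT ovaries. The calcium and calmodulin-stimulated PDE1 family took 13.6% in TG ovaries and 14.6% in WT ovaries, PDE7 13.4% in TG and 13.1% in WT, and PDE2 12.8% in TG and 13.0% in WT. PDE3 took 11.1% in TG ovaries and 9.04% in WT ovaries, and PDE4 took 10.7% in TG ovaries and 12.0% in WT ovaries. Pde11a, which degrades both nucleotides, was the other member whose groups did not overlap. It measured 1.28, 1.03 and 1.28 CPM in TG ovaries and 1.35, 1.48 and 1.64 CPM in WT ovaries, all near the limit of measurement, with a log2 fold change of -0.31 (SE 0.26).

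The cGMP-specific enzymes and the PDE6 genes share the symbol pattern. Pde5a, the target of sildenafil, measured 122, 99.5 and 116 CPM in TG ovaries and 115, 89.4 and 94.6 CPM in WT ovaries. TG replicates 1 and 3 were the highest, the groups overlapped, and the log2 fold change was 0.18 (SE 0.12), or 0.29 without WT replicate 1 (edgeR adjusted p = 0.993). Pde6d, which despite its name is a carrier of prenylated proteins and has no catalytic activity, had the highest level per length of all PDE genes, at 65.1 FPKM. It measured 58.1, 67.5 and 57.2 CPM in TG ovaries and 58.4, 61.4 and 60.8 CPM in WT ovaries, a log2 fold change of 0.02 (SE 0.09), and it overlaps Cops7b. Pde9a measured 2.0, 2.41 and 2.80 CPM in TG ovaries and 2.32, 3.45 and 3.29 CPM in WT ovaries, a log2 fold change of -0.33 (SE 0.25). WT replicate 1 lay inside the TG range.

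**Figure D5:**
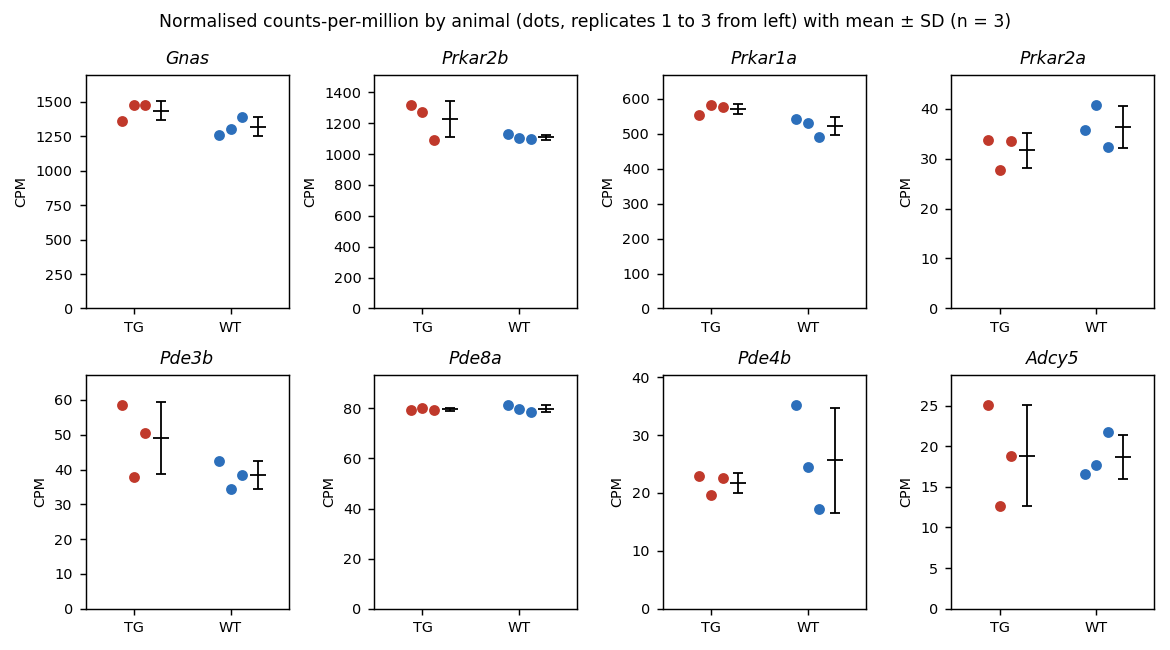
Normalised CPM in each animal (dots) with mean and SD (bars, n = 3) for 8 members, TG left of WT, on axes that start at 0. Every TG value of Prkar1a is above every WT value, TG replicate 2 of Pde3b lies within the WT range, and the 6 values of Pde8a nearly coincide.

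The nuclear end of the pathway, 6 genes, had no member past the test. Atf1, a CREB-family factor, measured 58.2, 51.3 and 52.4 CPM in TG ovaries and 59.5, 57.6 and 49.6 CPM in WT ovaries, a log2 fold change of -0.04 (SE 0.10). Crtc2, a coactivator held in the cytoplasm until it is dephosphorylated, measured 39.1, 36.5 and 43.7 CPM in TG ovaries and 41.0, 37.9 and 48.6 CPM in WT ovaries, a log2 fold change of -0.10 (SE 0.11). For both genes the groups overlapped and a WT animal was the highest. Creb1, at 10.3 FPKM, differed by 0.12 on the log2 scale (SE 0.11), or by 0.24 without WT replicate 1 (unadjusted p = 0.0475, edgeR adjusted p = 0.999). Crem, at 9.44 FPKM, had a log2 fold change of 0.12 (SE 0.12), Crtc3, at 11.6 FPKM, one of -0.04 (SE 0.13), and Crtc1, at 9.63 FPKM, one of -0.15 (SE 0.10). Crem has 32 annotated protein-coding transcripts, among them the cAMP-induced repressor form ICER, which a gene count does not resolve.

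For 8 members the counts were too low to test, with at most 15 counts in any library. Adcy1, the calcium-stimulated neuronal cyclase, had 15, 5 and 8 counts in TG ovaries and 8, 8 and 15 counts in WT ovaries. Pde6a and Pde6b, the rod photoreceptor enzymes, had 6, 13 and 10 counts and 2, 4 and 5 counts in TG ovaries, against 8, 8 and 8 counts and 5, 1 and 2 counts in WT ovaries. Pde1c had 4 to 9 counts in TG and 7 to 9 in WT libraries, and Pde4c 3 to 5 in TG and 1 to 4 in WT. Adcy8, Adcy10 (the soluble cyclase) and Akap14 had 0 to 2 counts in each library, where 3 counts correspond to between 0.162 and 0.176 CPM, so their presence was not detectable at this depth.

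The genes around the pathway were counted in lists, to be read beside the 1.05% of all tested genes that were called and the 4.08% with an unadjusted p under 0.05. None of 14 tested stimulatory receptors of the ovary passed or had an unadjusted p under 0.05, and their median log2 fold change was 0.03. The same counts held for a chosen list of 23 cAMP-responsive and CREB target genes, with a median of 0.00. Cyp17a1 was not in that list and was counted among 6 theca and interstitial markers. It measured 583, 707 and 466 CPM in TG ovaries and 361, 294 and 408 CPM in WT ovaries. Its log2 fold change was 0.73 (SE 0.16, unadjusted p = 0.00144, edgeR adjusted p = 0.115). Among these 6 markers 0 were called, 2 had an unadjusted p under 0.05, and the median was 0.11. Of 17 other G protein subunits and regulators none passed, and 1, Gnai1, had an unadjusted p under 0.05. Gnai1, an inhibitory alpha subunit that restrains cyclases, measured 50.2, 42.9 and 54.3 CPM in TG ovaries and 43.7, 38.7 and 36.7 CPM in WT ovaries, a log2 fold change of 0.31 (SE 0.11, edgeR adjusted p = 0.840). TG replicate 2 lay below WT replicate 1. None of 13 tested AKAPs with other names, of 6 other effectors and transporters, or of the 2 CREB coactivators passed or had an unadjusted p under 0.05, with medians of 0.08, 0.10 and 0.02.

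The cGMP arm, which reaches cAMP through PDE2 and PDE3, had 0 of 9 tested genes past the adjusted threshold and 2 with an unadjusted p under 0.05, again beside 1.05% and 4.08% of all tested genes. Nppc, the C-type natriuretic peptide precursor that granulosa cells make and that keeps the oocyte in meiotic arrest, measured 24.3, 21.8 and 18.5 CPM in TG ovaries and 32.9, 29.8 and 28.7 CPM in WT ovaries. All TG animals were below all WT animals, and the log2 fold change was -0.50 (SE 0.12, unadjusted p = 0.00221, edgeR adjusted p = 0.159). DESeq2 gave an adjusted p of 0.0498, and over all alternatives it ran from 0.0498 to 0.631. Npr3, the natriuretic peptide clearance receptor, had a log2 fold change of 0.37 (SE 0.16, unadjusted p = 0.0482, edgeR adjusted p = 0.9997).

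Between animals, the members varied about as much as other genes. Their median within-group coefficient of variation was 9.43%, against 10.4% for all tested genes. Extremes were not spread evenly over the libraries. TG replicate 2 was the lowest library for 16 of the 54 members (29.6%, against 18.3% of all genes), and TG replicate 1 was the highest for 15 (27.8%, against 16.1% of all genes). For Adcy9, Adcy6, Adcy5, Pkia and Pde3a, TG replicate 2 was the lowest of all 6 animals.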

How the data were processed

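RNA of whole ovary from 3 TG and 3 WT mice was sequenced. Per the submitters' processing notes, Bowtie2, RSEM 1.3.1, DESeq2 1.4.5 and the mm10 build were used; the annotation and strand setting are not given in the sources used here. The authors deposited estimated counts, most of them whole, and FPKM values. Here counts were rounded and tested with edgeR 4.0.16 (TMM factors, filterByExpr with a minimum count of 10, quasi-likelihood test, two-sided, Benjamini-Hochberg over 14124 genes at 0.05); between 8.50% and 9.12% of values per library were not whole. CPM values use the summed counts of the tested genes in each library multiplied by the TMM factors. Only the CPM given for 3 counts uses whole library totals, of 17075484 to 18516171 counts. Levels of different genes were compared only in FPKM. The fit was tested on simulated data. DESeq2 1.42.0, limma 3.58.1 and other settings were alternatives. Values are given in every sample for members past either p threshold and the top 2 per role by FPKM, and for others by level or spread, which were picked after their values were seen. Members and lists were chosen with earlier results of these data known. Coordinates and start windows come from RefSeq (GRCm38.p6) by Entrez gene number, with coordinates for 61 of 62 members. Gene strands and transcript numbers come from GENCODE. Intervals and floors cover these samples and counting error only.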

Additional observations from a re-analysis of the deposited data

How the results depend on the processing

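Under all 17 alternatives 0 members were called, while the count over all genes ran from 119 to 202, against 149. Members at an unadjusted p under 0.05 numbered 1 in the edgeR analysis, 0 under limma-voom, 0 under limma on log2(FPKM + 1), 0 on log2(FPKM + 0.1), 2 with the replicate number as a block (Pde3b and Pde5a), 3 without TG replicate 2 and WT replicate 3 together (Pde3b, Pde1a at -0.28 and Akap12 at 0.25), and 0 to 3 without single replicates; the cause was not tested. With the block, Pde3b had a log2 fold change of 0.34 (adjusted p = 0.300), no member was called and 159 genes were called in all. Correlations of same-numbered deviations were 0.228, 0.0797 and 0.0935, so the numbers were not taken as pairs, although each library correlated best with its own number. Of 19 named members, 10 kept their sign under all alternatives. The others changed sign under at least 1 alternative, with no call. Their log2 fold changes in the edgeR analysis ran from -0.10 for Crtc2 to 0.06 for Prkacb. Adcy9 at -0.10 and Akap2 at 0.06 were about as far from 0 and kept their sign. Pde8a was 0.0103 with upper-quartile factors, 0.0062 without composition factors, 0.0045 on log2(FPKM + 1) and 0.0046 on log2(FPKM + 0.1). Pde2a and Pkia were 0.00080 and 0.0015 with upper-quartile factors. Without TG replicate 2 and WT replicate 3 together, Pde2a was 0.0064, Pde6d -0.06, Crtc2 0.07, Rapgef3 0.0034 and Pkia 0.07. Without single replicates or both of these, log2 fold changes ranged from -0.022 to 0.0056 for Pde8a, -0.078 to 0.036 for Pde2a, -0.063 to 0.059 for Pde6d, -0.12 to 0.0055 for Atf1, -0.17 to 0.069 for Crtc2, -0.16 to 0.011 for Rapgef3, -0.12 to 0.15 for Pkia, -0.15 to 0.044 for Prkaca and -0.0085 to 0.13 for Prkacb. With 3 animals a group and a common biological variation of 12.5%, depth limits only the lowest members, and an exact permutation test of 1 gene could not go below 0.1.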
